A study of Sus scrofa with 4 samples.

Results

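Fibrinogen, the other acute phase proteins SAA3, CRP and HP, and the IL6 signal genes STAT3, SOCS3, IL6R and IL6ST were followed through kidneys of genetically modified pigs before and after transplantation into non-human primates. The genes were taken by symbol (FGA, FGB, FGG, SAA3, CRP, HP, STAT3, SOCS3, IL6R and IL6ST), 10 of the 26466 gene symbols counted. The 2 lines of CRP were summed. They were chosen by their role and by their counts and ratios in these 4 libraries, FGB and SAA3 having been among the genes with higher counts in transplanted kidneys. Their differences between transplanted and untransplanted kidneys, and between the genotypes, are therefore described here and not tested.

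RNA sequencing libraries came from 4 groups of kidney, 1 library in each. The first was a transplanted kidney of the genotype GalT-/-;hCD39;hCD46;hCD55;TBM, taken 6 weeks after surgery, and the second an untransplanted kidney of that genotype. Another was a transplanted kidney of the genotype GalT-/-;hCD39;hCD55, taken at 4 weeks, and the last an untransplanted kidney of that genotype. The genotypes are called CD39/CD46/CD55/TBM and CD39/CD55 below, transplanted kidneys are also called grafts, and untransplanted ones controls. All groups lack the galactosyltransferase that makes the alpha-Gal antigen, so no library comes from an unmodified pig. All carry human CD39, which degrades extracellular ATP, and human CD55, which restrains complement. The larger genotype adds human CD46, another restraint on complement, and thrombomodulin (TBM), which opens the anticoagulant protein C pathway. The labels do not give the promoters that drive the transgenes, the number of animals, the drugs used or the species of recipient. Between the transplanted kidneys, genotype, weeks after transplantation and recipient cannot be told apart. The libraries of a state differ in genotype, and those of a genotype in state, so the spread behind the main tests below holds that difference. Those tests also draw on variances shared over all genes. Nothing in the labels shows that the libraries are independent animals, so the p-values do not measure the spread between animals of 1 kind.

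The acute phase response is a change in plasma protein synthesis, best known in hepatocytes, that follows injury or infection. IL6 binds its receptor IL6R and the shared signal chain gp130, the product of IL6ST. Janus kinases bound to gp130 then phosphorylate STAT3, which enters the nucleus and raises transcription of acute phase genes and of its own inhibitor SOCS3. The products of FGA, FGB and FGG pair into fibrinogen, the precursor of fibrin clots. The kidney epithelium is known to make fibrinogen chains after injury, mainly from work in rodents. Serum amyloid A3 and haptoglobin, the product of HP, can also be made outside the liver.

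Total counts were 10346863 in the CD39/CD46/CD55/TBM graft, 13226372 in its untransplanted counterpart, 11566041 in the CD39/CD55 graft and 14092905 in its untransplanted counterpart. Loci of ribosomal RNA held 18.9%, 12.6%, 22.4% and 10.8% of these counts in the same order, so their share was higher in both transplanted libraries. Counts were scaled to CPM by edgeR's TMM factors (scaled CPM). The kidney markers fixed for this report, such as UMOD and LRP2, summed to 1108 and 1551 scaled CPM in the transplanted kidneys and to 5599 and 7662 in the untransplanted ones, CD39/CD46/CD55/TBM first in each pair. Of their 10 tested genes, 5 fell in transplanted kidneys (edgeR quasi-likelihood test, Benjamini-Hochberg adjusted p under 0.05). In bulk tissue, fewer cells of a type and less RNA per cell cannot be told apart.

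A pair of libraries is compared by the log2 ratio of its scaled counts, given with an exact 95% counting interval (Clopper-Pearson). Genes were called higher or lower at a ratio of 2-fold or more whose interval excluded 1. The interval covers counting error only and says nothing of the spread between animals. Of the 10 genes, 9 had at least 10 counts in some library. FGA reached that level through the transplanted kidneys alone, and CRP did not reach it.

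All fibrinogen chains were higher in the graft of either genotype than in its control. Their genes lie side by side on chromosome 8 of Sscrofa11.1, with FGG at 74553040 to 74562151, FGA at 74574870 to 74584202 and FGB at 74598170 to 74607409, a stretch of 54370 bases. FGB, the gene of the beta chain, had 765 counts (73.9 scaled CPM) in the CD39/CD46/CD55/TBM graft, against 117 counts (9.24) in its control. In CD39/CD55, FGB had 1535 counts (124 scaled CPM) in the transplanted kidney, against 122 (8.88) in the untransplanted one. The untransplanted levels of FGB were thus nearly the same, and both transplanted kidneys lay well above them. The log2 ratio of FGB was 2.99 (counting interval 2.72 to 3.29) in CD39/CD46/CD55/TBM and 3.80 (3.54 to 4.08) in CD39/CD55.

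FGG, the gene of the gamma chain, had 422 counts (40.8 scaled CPM) in the CD39/CD46/CD55/TBM graft, against 26 (2.05) in its untransplanted counterpart. In CD39/CD55 it had 620 counts (50.1 scaled CPM) in the transplanted kidney and 85 (6.19) in the untransplanted one. FGG differed from FGB in its baseline, which was lower in the untransplanted CD39/CD46/CD55/TBM control than in the untransplanted CD39/CD55 kidney. Its log2 ratio of transplanted over untransplanted was 4.29 (3.74 to 4.94) in CD39/CD46/CD55/TBM and 3.01 (2.69 to 3.36) in CD39/CD55. FGA, the gene of the alpha chain, had the fewest counts of the chains. It had 63 counts (6.08 scaled CPM) in the CD39/CD46/CD55/TBM graft and 1 in its control, a log2 ratio of 5.69 (3.74 to 11.59) that was 4.73 with a prior count of 2. In the CD39/CD55 graft it had 52 counts (4.20 scaled CPM), and in the untransplanted CD39/CD55 kidney it had 0, which allows up to 0.218 scaled CPM (3 counts). With 3 counts taken for that control and the graft count taken as exact, FGA was 19.2-fold higher in the CD39/CD55 graft. The counting interval of the log2 ratio, which covers error in both counts, began at 3.92. FGA transcripts were at the edge of detection without transplantation in both genotypes.

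The fibrinogen genes together had 1250 counts (121 scaled CPM) in the CD39/CD46/CD55/TBM graft, against 144 (11.4) in its control. They had 2207 counts (178 scaled CPM) in the CD39/CD55 graft, against 207 (15.1) in its control. Summed, fibrinogen was 10.6-fold higher with transplantation in CD39/CD46/CD55/TBM and 11.8-fold higher in CD39/CD55. The log2 ratios were 3.40 (3.16 to 3.67) and 3.56 (3.36 to 3.78), and their difference, -0.16, had a counting interval of -0.48 to 0.16 that holds 0.

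**Figure D1:**
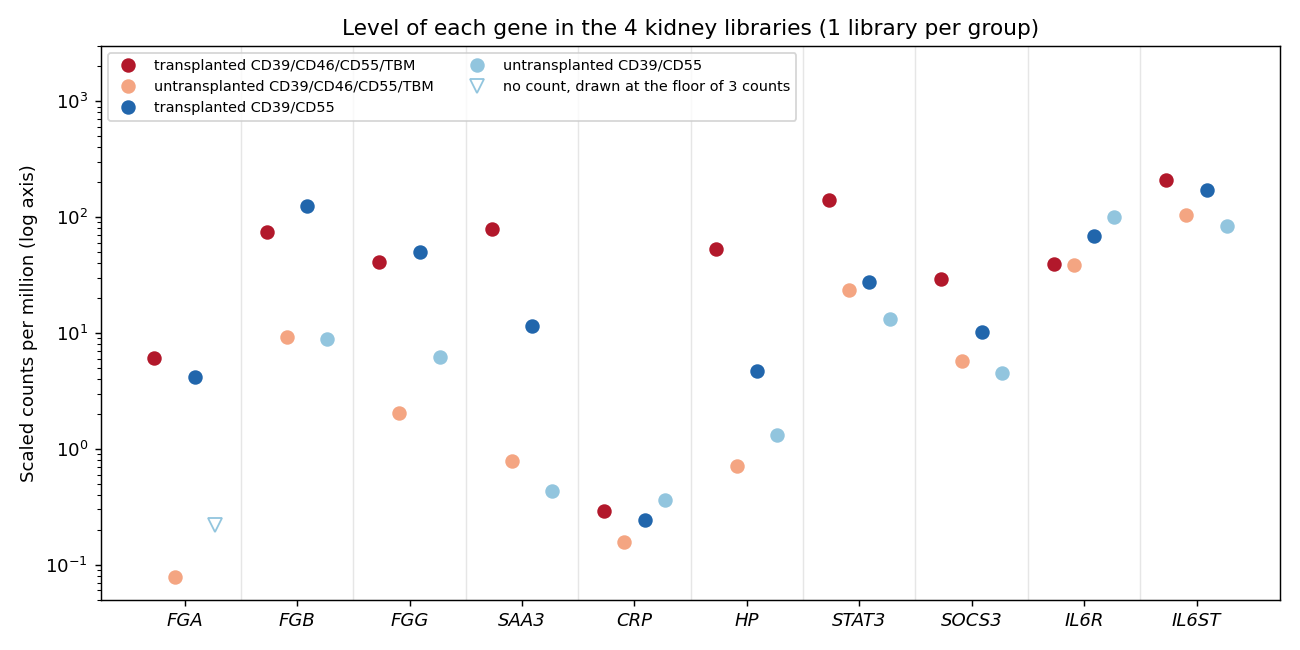
Scaled CPM of each of the 10 genes in the 4 libraries, on a log axis, 1 point per library and no error bars because each group has 1 library. An open triangle marks a library with no count, drawn at 3 counts. The fibrinogen chains, SAA3 and HP lie higher in both transplanted kidneys, SAA3, HP and STAT3 are highest in the CD39/CD46/CD55/TBM graft, and IL6R is highest in the untransplanted CD39/CD55 kidney.

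SAA3 and HP were higher in both transplanted kidneys as well, but by very different amounts in the different genotypes, whereas CRP was barely detected. SAA3 (chromosome 2, 41021349 to 41025950), an acute phase apolipoprotein, had 819 counts (79.1 scaled CPM) in the CD39/CD46/CD55/TBM graft, against 10 (0.79) in its control. In the other genotype SAA3 had 142 counts (11.5 scaled CPM) in the transplanted kidney, against 6 (0.437) in the untransplanted one. The untransplanted levels were thus a small fraction of either transplanted level. The log2 ratio was 6.58 (5.76 to 7.71) in CD39/CD46/CD55/TBM, the 12th highest of all 18168 genes in that pair. It was 4.60 (3.56 to 6.18) in CD39/CD55, the 66th highest.

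HP (chromosome 6, 14980382 to 14985245), the gene of the haemoglobin-binding protein haptoglobin, had 554 counts (53.5 scaled CPM) in the CD39/CD46/CD55/TBM graft, against 9 (0.711) in its control. In the CD39/CD55 graft it had 58 counts (4.68 scaled CPM), and in its control 18 (1.31). A single library, the CD39/CD46/CD55/TBM graft, therefore held most of the HP counts. The log2 ratio was 6.16 (5.30 to 7.37) in CD39/CD46/CD55/TBM, the 20th highest of all genes, and 1.81 (1.05 to 2.69) in CD39/CD55. HP overlaps by 183 bases the locus TXNL4B, which RefSeq lists here as a long non-coding RNA, and reads of the shared stretch cannot be told apart, since no source used here says whether counting used the strand. TXNL4B had 597 and 119 counts in the CD39/CD46/CD55/TBM graft and control, and 254 and 220 in those of CD39/CD55. Its log2 ratios, 2.61 and 0.36, were smaller than those of HP, and its part in the HP counts was not tested.

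CRP, the pentraxin whose plasma level rises steeply in acute inflammation, has 2 lines on chromosome 4, at 90782741 to 90785051 and 90793361 to 90801020. Summed, it had 3 and 2 counts in the CD39/CD46/CD55/TBM graft and control, and 3 and 5 in those of CD39/CD55. All but the last are at or under 3 counts, so no difference of CRP was detectable at this depth. Near relatives of SAA3 were also scarce. SAA2 had 16, 3, 2 and 0 counts and SAA4 11, 12, 8 and 5, in the order transplanted and untransplanted CD39/CD46/CD55/TBM, then transplanted and untransplanted CD39/CD55. No source used here says how reads shared by such similar genes were assigned.

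STAT3 and its inhibitor SOCS3 were higher in both transplanted kidneys and highest in the CD39/CD46/CD55/TBM graft. STAT3 (chromosome 12, 20407316 to 20471091), the transcription factor that carries the IL6 signal, had 1459 counts (141 scaled CPM) in that kidney, against 296 (23.4) in the untransplanted one. In CD39/CD55 it had 340 counts (27.5 scaled CPM) in the transplanted kidney, against 180 (13.1) in the untransplanted one. The level in the CD39/CD55 graft was thus close to that of the untransplanted CD39/CD46/CD55/TBM control. The log2 ratio of STAT3 was 2.59 (2.41 to 2.78) in CD39/CD46/CD55/TBM and 1.07 (0.80 to 1.34) in CD39/CD55.

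SOCS3 (chromosome 12, 3643832 to 3647015), which blocks Janus kinases bound to gp130, had 302 counts (29.2 scaled CPM) in the CD39/CD46/CD55/TBM graft, against 73 (5.77) in its control. In the other genotype SOCS3 had 127 counts (10.3 scaled CPM) in the transplanted kidney, against 62 (4.51) in the untransplanted one. SOCS3 followed the same order of libraries as STAT3 except that its transplanted CD39/CD55 level stood further above both untransplanted ones. The log2 ratio was 2.33 (1.97 to 2.73) in CD39/CD46/CD55/TBM and 1.18 (0.74 to 1.65) in CD39/CD55.

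The receptor genes did not move together. IL6ST (chromosome 16, 35101304 to 35151832) had 2151 counts (208 scaled CPM) in the CD39/CD46/CD55/TBM graft, against 1316 (104) in its control. In CD39/CD55 it had 2125 counts (172 scaled CPM) in the transplanted kidney, against 1146 (83.4) in the untransplanted one. Both genotypes thus gave nearly the same ratio for the signal chain, at the edge of the 2-fold rule. The log2 ratio was 0.999 (0.90 to 1.10) in CD39/CD46/CD55/TBM, just under the 2-fold rule, and 1.04 (0.94 to 1.15) in CD39/CD55, just over it. With totals that leave out the ribosomal RNA loci as the scaling, the ratio in CD39/CD46/CD55/TBM was 1.17 and passed the rule. IL6ST lies wholly within the non-coding gene LOC102168151, whose counts, 2159, 1321, 2129 and 1151 in the order used for SAA2, nearly repeat those of IL6ST, so the reads of the pair cannot be told apart.

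IL6R (chromosome 4, 95322426 to 95381393), which binds IL6 itself, was not higher in either transplanted kidney. It had 406 counts (39.2 scaled CPM) in the CD39/CD46/CD55/TBM graft and 485 (38.3) in its control, a log2 ratio of 0.03 (-0.16 to 0.23). In the other genotype IL6R had 857 counts (69.2 scaled CPM) in the transplanted kidney and 1385 (101) in the untransplanted one, a log2 ratio of -0.54 (-0.67 to -0.42). That was lower by less than the 2-fold rule. Both CD39/CD55 kidneys had more IL6R than both CD39/CD46/CD55/TBM kidneys.

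Of the 9 genes that passed the count minimum, 7 were called higher and 0 lower in the CD39/CD46/CD55/TBM graft. The background over all 18168 genes was 15.9% called higher and 16.3% called lower in that pair. In CD39/CD55, 8 were called higher and 0 lower, against a background of 13.2% higher and 13.7% lower. The genes were chosen with these contrasts known, so nothing is read from these counts. The median log2 ratio of the 9 genes was 2.99 in CD39/CD46/CD55/TBM and 1.81 in CD39/CD55, against 0.01 and 0.03 over all genes.

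**Figure D2:**
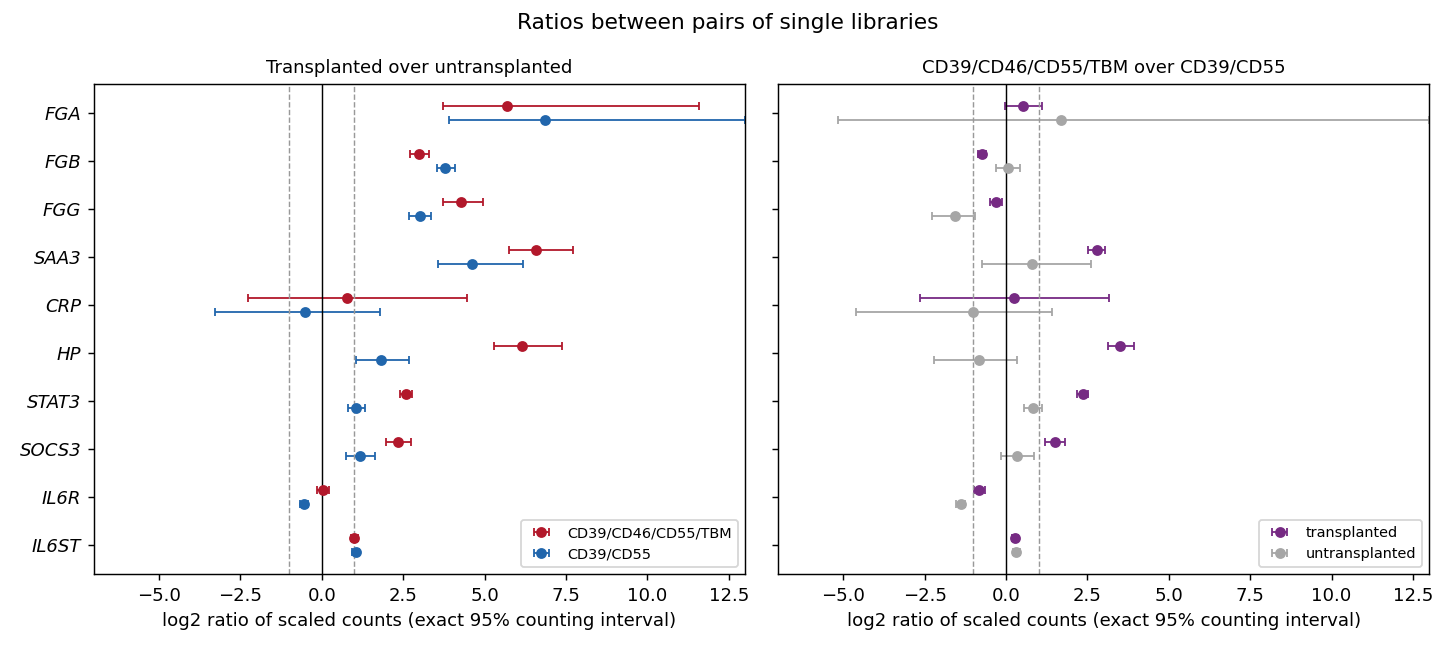
Log2 ratios of scaled counts with exact 95% counting intervals, graft over control by genotype on the left and CD39/CD46/CD55/TBM over CD39/CD55 by state on the right, with dashed lines at 2-fold and unbounded intervals of FGA, at 0 counts in 1 library, running off the axis. On the left, SAA3, HP, STAT3, SOCS3 and FGG have the higher ratio in CD39/CD46/CD55/TBM, FGB has the higher ratio in CD39/CD55, and IL6ST nearly the same in both.

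Choosing between the donor genotypes is the purpose that the series' design text gives, and the transplanted kidneys were therefore set against each other. The CD39/CD46/CD55/TBM graft had more SAA3, HP, STAT3 and SOCS3 than the CD39/CD55 graft, and less FGB and IL6R by under 2-fold. The log2 ratio of CD39/CD46/CD55/TBM over CD39/CD55 was 3.50 (3.12 to 3.93) for HP and 2.78 (2.53 to 3.05) for SAA3. It was 2.36 (2.19 to 2.53) for STAT3 and 1.505 (1.20 to 1.82) for SOCS3. These 4 of 9 genes were called higher and 0 lower, against a background of 11.0% called in each direction. Since the genes were chosen by their values in these libraries, nothing is read from that count. FGB had a log2 ratio of -0.75 (-0.87 to -0.62), FGG of -0.30 (-0.48 to -0.12) and FGA of 0.53 (-0.02 to 1.09). Fibrinogen as a whole was lower in the CD39/CD46/CD55/TBM graft by less than the 2-fold rule, with a log2 ratio of -0.56 (-0.66 to -0.46). SAA3 and HP were called higher.

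Between the untransplanted kidneys, the log2 ratio was nearer to 0 than between the grafts for FGB, SAA3, HP, STAT3 and SOCS3, and further from 0 for FGG, IL6R and IL6ST. FGA, with 1 and 0 counts there, was at or under 3 counts in both. FGG was called lower in the untransplanted CD39/CD46/CD55/TBM control than in the untransplanted CD39/CD55 kidney, with a log2 ratio of -1.57 (-2.28 to -0.94). IL6R was also called lower, with -1.40 (-1.55 to -1.25). These 2 of 9 stand against a background of 7.88% called lower, and 0 were called higher against 8.17%. For the same reason nothing is read from these counts. STAT3 was higher by 0.83 (0.56 to 1.11) without reaching 2-fold, and FGB was nearly equal, at 0.06 (-0.32 to 0.44). The intervals of SAA3, from -0.75 to 2.60, and of HP, from -2.22 to 0.35, were wide because each rested on 18 or fewer counts a library.

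The difference between the genotypes in the transplantation ratio used all 4 libraries, with a Wald counting interval. It was called for HP at 4.35 (3.15 to 5.54), SAA3 at 1.97 (0.54 to 3.41), STAT3 at 1.52 (1.21 to 1.84), FGG at 1.28 (0.62 to 1.93) and SOCS3 at 1.15 (0.58 to 1.72), each greater in CD39/CD46/CD55/TBM. These are 5 of 9 genes, against a background of 10.4% greater and 11.5% smaller, and 0 were called smaller. The choice of the genes used these same libraries, so nothing is read from the count of calls. FGG was nonetheless lower in the CD39/CD46/CD55/TBM graft than in the CD39/CD55 graft, with a log2 ratio of -0.30 (-0.48 to -0.12). Between the controls that ratio was -1.57, with 26 counts in the CD39/CD46/CD55/TBM control. FGB was smaller by less than the rule, at -0.80 (-1.19 to -0.42). IL6ST gave -0.04 (-0.18 to 0.10). With totals that leave out the ribosomal RNA loci as the scaling, SOCS3 dropped just under the rule, at 0.99.

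The genotypes were also compared over both states, 2 libraries a side, as a description, since the genes were chosen by their counts in these libraries, and no p is given for them. The log2 fold change (edgeR) of CD39/CD46/CD55/TBM over CD39/CD55 was 3.18 for HP, 2.02 for STAT3 and -1.13 for IL6R, which was lower in the CD39/CD46/CD55/TBM library of both states. The HP value rested on the CD39/CD46/CD55/TBM graft. Between the untransplanted kidneys the log2 ratio of HP was -0.84 (-2.22 to 0.35). Without the CD39/CD46/CD55/TBM graft the log2 fold change of HP was -2.06. That fit sets 1 control against a graft and a control, so its sign cannot be read as a genotype difference. Over all 18168 genes, edgeR's quasi-likelihood test called 0.0% in either direction, with 190 (1.05%) higher and 259 (1.43%) lower at an unadjusted p under 0.05, and DESeq2's Wald test called 12 higher and 5 lower.

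The makeup of the fibrinogen counts differed among libraries, a comparison that needs no scaling between them. Counts per gene depend on transcript length and mappability, so only changes of a ratio between libraries are read here and not the ratio itself. FGB held 61.2% (exact binomial interval 58.4 to 63.9) of fibrinogen counts in the CD39/CD46/CD55/TBM graft, against 81.2% (73.9 to 87.3) in its control. In CD39/CD55 it held 69.6% (67.6 to 71.5) in the transplanted kidney, against 58.9% (51.9 to 65.7) in the untransplanted one. The FGB share was thus lower with transplantation in the larger genotype and higher in the other. FGA held 5.04% (3.89 to 6.40) in the CD39/CD46/CD55/TBM graft and 2.36% (1.76 to 3.08) in the CD39/CD55 graft, 2 intervals that do not overlap.

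The ratio of SAA3 to FGB was 1.07 in the CD39/CD46/CD55/TBM graft and 0.0855 in its control. In CD39/CD55 it was 0.0925 and 0.0492. With transplantation the log2 of the SAA3 to FGB ratio thus changed by 3.58 (2.66 to 4.50) in CD39/CD46/CD55/TBM. In CD39/CD55 it changed by 0.81 (-0.36 to 1.97), an interval that holds 0. The ratio of HP to FGB stood at 0.724 and 0.0769 in the CD39/CD46/CD55/TBM graft and control, and at 0.0378 and 0.148 in those of CD39/CD55. The ratio of IL6ST to IL6R was 5.30 and 2.71 in the CD39/CD46/CD55/TBM graft and control, and 2.48 and 0.827 in those of CD39/CD55, so the signal chain gained on the receptor with transplantation in both. SOCS3 per STAT3 was 0.207 and 0.247 in CD39/CD46/CD55/TBM, and 0.374 and 0.344 in CD39/CD55, in the same order of states. Graft against control, the log2 of that ratio changed by -0.26 (-0.67 to 0.15) in CD39/CD46/CD55/TBM and 0.11 (-0.40 to 0.62) in CD39/CD55. Between the grafts it differed by -0.85 (-1.20 to -0.51), CD39/CD46/CD55/TBM over CD39/CD55.

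**Figure D3:**
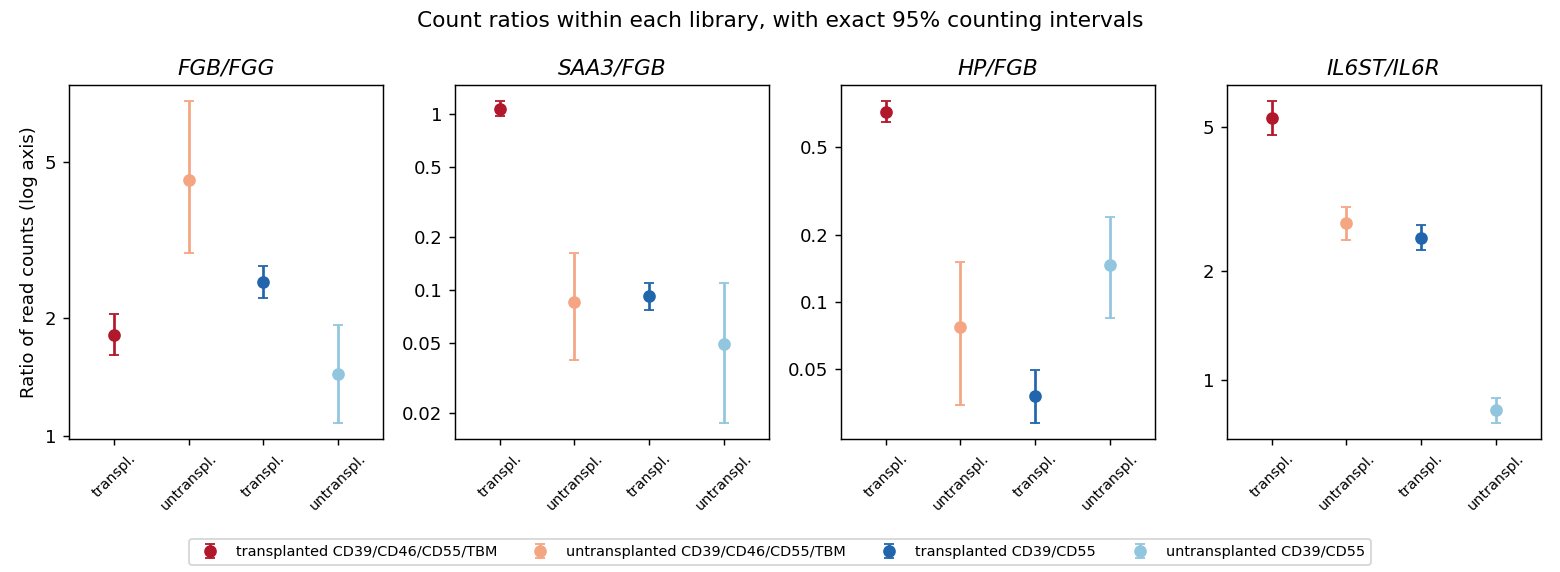
Ratios of counts within each library, on a log axis, with points for the ratio and bars for exact 95% counting intervals. HP per FGB is 0.724 in the CD39/CD46/CD55/TBM graft and 0.0378 in the CD39/CD55 graft, and FGB per FGG lies lower in the graft than in its control in CD39/CD46/CD55/TBM and higher in CD39/CD55.

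The partners of these genes were then examined by lists of the pathway, from which the 10 genes were left out. Grafts were compared with controls, 2 libraries a side, by edgeR's quasi-likelihood test adjusted over all 18168 genes. It called 1.24% of genes higher and 2.71% lower, and the words rose and fell refer to it. At an unadjusted p under 0.05 the shares were 8.99% and 10.7%. The lists were written with earlier results of these libraries known, so their directions are not independent evidence.

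Among ligands and receptors of the IL6 family, 0 of 11 tested genes rose and 0 fell. At an unadjusted p under 0.05 there were 3 higher and 1 lower, and DESeq2's Wald test called 1 lower. IL6 itself had 10 and 3 counts in the CD39/CD46/CD55/TBM graft and control, and 20 and 1 in those of CD39/CD55 (log2 fold change 3.004, SE 1.08, adjusted p = 0.146, with 0.0728 to 0.607 over the alternatives). IL6 was therefore scarce in every library, and it reached the count minimum through the transplanted kidneys alone. By the rule for pairs it was called higher in both grafts, on 3 and 1 counts in the controls. The log2 ratios were 1.88 in CD39/CD46/CD55/TBM and 3.92 in CD39/CD55. Between the grafts its log2 ratio, CD39/CD46/CD55/TBM over CD39/CD55, was -0.71 with a counting interval of -2.00 to 0.42 that holds 0. OSMR, the oncostatin M receptor that pairs with gp130, had 438 and 151 counts in the CD39/CD46/CD55/TBM graft and control, against 169 and 222 in those of CD39/CD55 (adjusted p = 0.316). OSM, its ligand, had 2, 4, 3 and 0 counts in the order used for SAA2 and was not tested.

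Of 24 tested Janus kinase and STAT pathway genes, 0 rose and 0 fell, with 1 higher and 2 lower at an unadjusted p under 0.05 and 0 by DESeq2. JAK2, a kinase that gp130 uses, had 2497 and 930 counts in the CD39/CD46/CD55/TBM graft and control, against 809 and 617 in those of CD39/CD55 (log2 fold change 1.37, SE 0.57, adjusted p = 0.205). JAK2 was thus highest in the same library as STAT3 and SOCS3, and its log2 ratio of transplanted CD39/CD46/CD55/TBM over transplanted CD39/CD55 was 1.88. JAK1, the other main gp130 kinase, varied little, with 2453, 2246, 3085 and 2617 counts in the order used for SAA2. SOCS1, another inhibitor of the family, had 46, 49, 28 and 32.

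Among targets of STAT3, 2 of 21 tested genes rose and 0 fell. REG3G, a secreted antimicrobial lectin, had 1170 and 0 counts in the CD39/CD46/CD55/TBM graft and control, and 443 and 4 in those of CD39/CD55 (adjusted p = 0.00098). With 3 counts taken for the control at 0, it was 477-fold higher in the CD39/CD46/CD55/TBM graft. Like FGA, REG3G reached the count minimum through the transplanted kidneys alone, so its p is a description. HIF1A, the hypoxia transcription factor, had 468 and 94 counts in CD39/CD46/CD55/TBM and 235 and 111 in CD39/CD55, in the same order of states (log2 fold change 2.05, SE 0.49, adjusted p = 0.0368). The call of HIF1A was lost without the transplanted CD39/CD46/CD55/TBM library (adjusted p = 0.225), without the untransplanted one (0.073) and without the untransplanted CD39/CD55 one (0.0585, all edgeR). Over the list, the log2 ratio had a median of 0.57 in CD39/CD46/CD55/TBM and 0.23 in CD39/CD55, smaller than the ratios of STAT3 and SOCS3 themselves.

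Of 24 other positive acute phase genes tested, 5 rose and 0 fell, with 15 higher and 1 lower at an unadjusted p under 0.05. Their median log2 ratio was 1.52 in CD39/CD46/CD55/TBM and 1.45 in CD39/CD55. SERPINA3-2, a serine protease inhibitor of the antichymotrypsin family, had 89 and 16 counts in the CD39/CD46/CD55/TBM graft and control and 111 and 10 in those of CD39/CD55 (log2 fold change 3.13, SE 0.57, adjusted p = 0.0117). C3, the central complement protein, had 1343 and 101 counts in CD39/CD46/CD55/TBM and 431 and 153 in CD39/CD55 (3.10, SE 0.59, adjusted p = 0.0133). C1S, a protease of the classical complement pathway, had 1027 and 343 counts in CD39/CD46/CD55/TBM and 2108 and 484 in CD39/CD55 (2.11, SE 0.45, adjusted p = 0.0221). Its call was lost without the control of CD39/CD46/CD55/TBM (adjusted p = 0.101). The remaining pair that rose, named after their values were seen, were the copper carrier CP and the terminal complement gene C9. The call of CP was lost without either control (adjusted p = 0.0528 without that of CD39/CD46/CD55/TBM and 0.189 without that of CD39/CD55). The call of C9 was lost without the CD39/CD55 control (0.116). Leaving out each library in turn gave 3 to 10 genes of the list that rose.

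Other members of the list lay near the threshold or far from it. LCN2, the iron-binding lipocalin made by injured tubules, had 255 and 19 counts in the CD39/CD46/CD55/TBM graft and control, against 63 and 42 in those of CD39/CD55 (log2 fold change 2.69, SE 0.70, adjusted p = 0.0517). LBP, which binds bacterial lipopolysaccharide, had 75 and 11 counts in CD39/CD46/CD55/TBM and 25 and 9 in CD39/CD55 (2.58, SE 0.75, adjusted p = 0.0761). Both missed the threshold, and DESeq2's Wald test called both higher (adjusted p = 0.00552 and 0.0343). ITIH4, a major acute phase protein of the pig, had 20 and 34 counts in CD39/CD46/CD55/TBM and 18 and 61 in CD39/CD55, with a log2 fold change of -1.07 and an adjusted p of 0.361. ORM1, the gene of alpha-1-acid glycoprotein, had at most 3 counts in any library. Between the transplanted kidneys, 5 of the 24 genes were called higher in CD39/CD46/CD55/TBM and 2 lower, against 11.0% over all genes in each direction. HPX, named after its values were seen, was among those called lower, with 96 counts against 676.

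Negative acute phase genes, whose plasma proteins drop in inflammation, fell in 5 of 11 tested cases and rose in 1. PROC, the gene of protein C, had 14 and 380 counts in the CD39/CD46/CD55/TBM graft and control and 24 and 822 in those of CD39/CD55 (log2 fold change -4.76, SE 0.55, adjusted p = 0.00107). TTR, the thyroxine carrier, had 0 counts in both transplanted kidneys, against 215 in the untransplanted CD39/CD46/CD55/TBM control and 72 in the untransplanted CD39/CD55 kidney (adjusted p = 0.00209). With 3 counts taken for each graft, it was 58.6-fold lower in CD39/CD46/CD55/TBM and 21.6-fold lower in CD39/CD55. TTR reached the count minimum through the untransplanted kidneys alone, so its p is a description. SERPINC1, the gene of antithrombin, had 10 and 134 counts in CD39/CD46/CD55/TBM and 9 and 164 in CD39/CD55 (-3.73, SE 0.56, adjusted p = 0.00441). F12, the contact factor that rose, had 31 and 6 counts in CD39/CD46/CD55/TBM and 37 and 2 in CD39/CD55 (3.25, SE 0.82, adjusted p = 0.0468). It reached the count minimum through the transplanted kidneys alone, so its p is a description too. Without the untransplanted CD39/CD55 library, F12 had an adjusted p of 0.276, and without the transplanted CD39/CD46/CD55/TBM library 0.0578. The vitamin D carrier GC and the iron carrier TF, named after their values were seen, were the remaining genes that fell. GC, like TTR, reached the count minimum through the untransplanted kidneys alone. TF missed the threshold without the CD39/CD46/CD55/TBM graft (adjusted p = 0.0823).

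**Figure D4:**
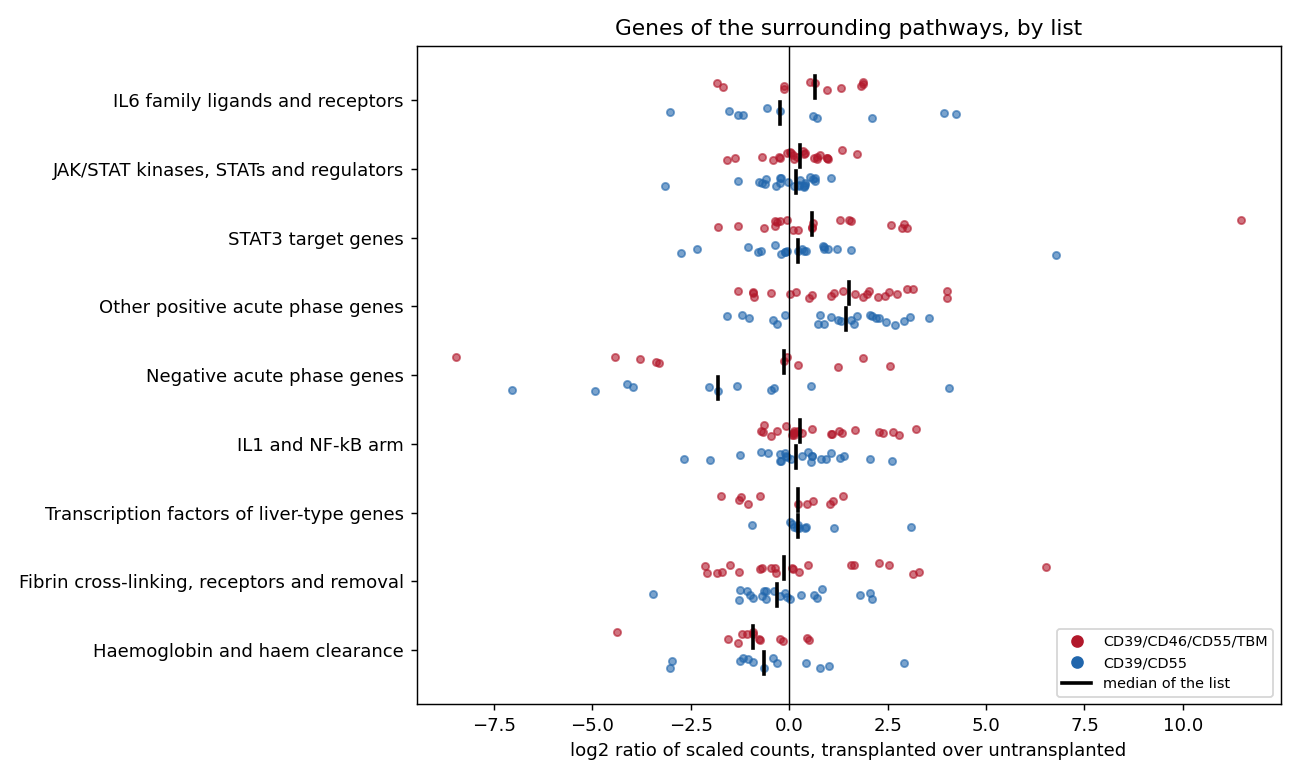
Log2 ratio of scaled counts, transplanted over untransplanted, of the tested genes in each pathway list, 1 point per gene and genotype, with a bar at the list's median. The other positive acute phase genes have 15 of 24 called higher in CD39/CD46/CD55/TBM and 14 of 24 in CD39/CD55, with 1 and 2 called lower and medians of 1.52 and 1.45. The negative ones have 5 and 7 of 11 called lower and 3 and 1 called higher, with medians of -0.12 and -1.81. Over all genes, 15.9% and 13.2% were called higher and 16.3% and 13.7% lower.

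Liver-type transcription factors, which set the basal level of fibrinogen and other plasma protein genes, gave 0 of 11 tested genes risen and 0 fallen, with 1 higher and 0 lower at an unadjusted p under 0.05 and 0 by DESeq2. HNF4A, a nuclear receptor of liver and proximal tubule, had 819 and 3303 counts in the CD39/CD46/CD55/TBM graft and control, and 3407 and 2860 in those of CD39/CD55. It was thus low in 1 library, the CD39/CD46/CD55/TBM graft, with a log2 ratio of -1.80 over the CD39/CD55 graft. Summed fibrinogen was 121 scaled CPM in that graft and 178 in the CD39/CD55 graft. In the controls, where HNF4A was not low, it was 11.4 and 15.1. A link between HNF4A and these genes was not tested. CEBPD, a factor that IL6 induces, had 2875, 2290, 3891 and 3187 counts in the order used for SAA2. CEBPB was listed at 0 in all 4 libraries.

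Fibrin is cross-linked, bound and removed by a further set of genes, of which 2 of 22 tested rose and 0 fell. PLAU, the gene of urokinase, which activates plasminogen, had 92 and 19 counts in the CD39/CD46/CD55/TBM graft and control and 95 and 24 in those of CD39/CD55 (log2 fold change 2.34, SE 0.53, adjusted p = 0.0283). ITGB3, an integrin chain that binds fibrinogen, had 173 and 21 counts in CD39/CD46/CD55/TBM and 58 and 15 in CD39/CD55 (2.95, SE 0.66, adjusted p = 0.0274). The call of PLAU was lost without either untransplanted library (adjusted p = 0.0827 and 0.0687), and that of ITGB3 without the transplanted CD39/CD46/CD55/TBM library (0.217).

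Markers of other cells that make or carry these proteins were measured beside them. Hepatocyte markers summed to 40.3 and 81.8 scaled CPM in the transplanted kidneys and 127 and 130 in the untransplanted ones, CD39/CD46/CD55/TBM first, and 2 of 7 tested fell. ALB, the defining hepatocyte product, had at most 5 counts in any library, and 2 or 3 of the 12 listed markers were at 0 in each. In graft over control, 1 hepatocyte marker was called higher and 4 lower in CD39/CD46/CD55/TBM, and 1 higher and 2 lower in CD39/CD55. The shares over all genes were 15.9% higher and 16.3% lower in CD39/CD46/CD55/TBM, and 13.2% and 13.7% in CD39/CD55. The markers called higher, named after their values were seen, were AHSG in CD39/CD46/CD55/TBM, with 47 counts in the graft and 24 in the control, and HRG in CD39/CD55, with 314 and 148. Both are plasma proteins of the liver, and their part in the fibrinogen result was not tested. Platelet markers, of which 3 could be tested, summed to 36.6 and 51.8 scaled CPM in the transplanted kidneys and 52.0 and 32.8 in the untransplanted ones, and 0 rose. Macrophage markers summed to 17.96 and 9.53 scaled CPM in the transplanted kidneys and 84.0 and 90.4 in the untransplanted ones, and 6 of 9 fell. Neutrophil markers summed to at most 5.69 scaled CPM and lymphocyte markers to at most 8.15 in any library. Endothelial markers summed to 157 and 166 scaled CPM in the transplanted kidneys and 245 and 247 in the untransplanted ones, and 1 of 9 fell.

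Markers of injured tubule, HAVCR1, SPP1 and LCN2 among them, summed higher in both grafts than in the controls. They summed to 5225 and 2294 scaled CPM in the transplanted kidneys and 274 and 405 in the untransplanted ones, CD39/CD46/CD55/TBM first, and 5 of 12 tested rose. Their sum was highest in the CD39/CD46/CD55/TBM graft, as were SAA3, HP, STAT3 and SOCS3, whereas summed fibrinogen was highest in the CD39/CD55 graft. Their part in those results was not tested.

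The genes around the fibrinogen cluster were counted beside it. Of 8 neighbours examined, 5 passed the count minimum, 1 was called higher and 0 lower in the CD39/CD46/CD55/TBM graft, and 0 higher and 1 lower in the CD39/CD55 graft. Over all genes, 15.9% were called higher and 16.3% lower in CD39/CD46/CD55/TBM, and 13.2% and 13.7% in CD39/CD55. With 5 genes, nothing is read from these calls. PLRG1, a splicing gene, had 101 and 93 counts in the CD39/CD46/CD55/TBM graft and control and 124 and 110 in those of CD39/CD55, with log2 ratios of 0.41 and 0.32. TLR2, a receptor for bacterial lipoproteins, was the gene called lower, with 21 counts in the CD39/CD55 graft, against 95 in its control. In CD39/CD46/CD55/TBM it had 26 and 34 counts.

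The 5 genes whose pattern over the 4 libraries was most like that of summed fibrinogen, out of 16066 with at least 50 counts in all, were GRM3, APOD, B3GNT7, RBM3 and LOC110256021. The measure was the root mean square distance of centred log2 scaled CPM. GRM3, a glutamate receptor, stood nearest at 0.154, with 251 and 25 counts in the CD39/CD46/CD55/TBM graft and control and 422 and 31 in those of CD39/CD55. APOD, a lipid-binding apolipoprotein, stood at 0.158, with 1503 and 139 counts in CD39/CD46/CD55/TBM and 2020 and 231 in CD39/CD55. The other acute phase and IL6 signal genes were less like fibrinogen, the nearest being SOCS3 at 1.16 and ranked 687th. The 3 genes nearest to SAA3 were LOC110258207 at 0.43, APOBEC1, a cytidine deaminase, at 0.467, and C7H6orf222 at 0.497. APOBEC1 had 73 and 0 counts in the CD39/CD46/CD55/TBM graft and control and 16 and 0 in those of CD39/CD55. FGA ranked 16th and HP 20th by likeness to SAA3. Such distances over 4 libraries are a description.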

How the data were processed

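The deposited files hold whole-number counts of reads per gene, 1 file per library, which the authors did not normalize as far as the values show. Phenol and chloroform extraction was followed by a Lexogen library kit named Quant-Seq, per the labels' protocols, and whether it read transcript ends or whole transcripts is not settled here. The aligner Bowtie2, the tool set bedtools and the build Sscrofa11.1 come from the submitters' processing notes. How strand, reads matching several genes and primate reads were treated was not given in the sources used here. Overlapping and near-identical genes can therefore share reads, and primate reads may be in the counts.

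Repeated lines of 81 symbols were summed. The filter kept the 18168 genes that reached 10 counts in any library. Pairs of libraries were compared by log2 ratios of counts scaled by TMM, with a prior count of 0.5. With 1 library per group these pairs have no replicate check. TMM factors were 1.0 and 0.957 in transplanted and untransplanted CD39/CD46/CD55/TBM and 1.07 and 0.975 in CD39/CD55. A count of 0 allows up to 3 counts, or 0.29, 0.237, 0.242 and 0.218 scaled CPM in the same order. The lowest Spearman correlation between libraries was 0.93.

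Tests over 2 libraries a side used edgeR 4.0.16 (glmQLFit and glmQLFTest, R 4.3.3), adjusted by Benjamini-Hochberg over all genes, with a threshold of 0.05 and 2 residual degrees of freedom. The SE is the absolute log2 fold change divided by the square root of F. Alternatives were DESeq2 1.42.0 (size factors and Wald test), totals without 5 ribosomal RNA loci, a prior of 2, no filter, the other factor as a block, and leaving out each library. Other steps used Python 3.11.15 with pandas 2.3.3 and scipy 1.17.1.

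The members and lists were chosen with earlier results of these data known. Besides the 10 members, genes named are the 3 with the smallest p in each direction among those past the threshold in a list, a fixed set of partners, and those nearest in pattern. Results of some listed genes are not reported here. No sequence was used here.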

Additional observations from a re-analysis of the deposited data

Results flagged for a closer look

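In 2 ratios of counts within a library, the change with transplantation ran in opposite directions in the 2 genotypes. The log2 ratio of FGB to FGG changed by -1.29 (95% counting interval -1.92 to -0.66) in CD39/CD46/CD55/TBM and by 0.79 (0.37 to 1.21) in CD39/CD55, with ratios of 1.81 and 4.50 in the CD39/CD46/CD55/TBM graft and control and 2.48 and 1.44 in those of CD39/CD55. The untransplanted CD39/CD46/CD55/TBM value rests on 26 counts of FGG. The log2 ratio of HP to FGB changed by 3.16 (2.20 to 4.13) in CD39/CD46/CD55/TBM and by -1.99 (-2.79 to -1.19) in CD39/CD55, with 9 and 18 counts of HP in the untransplanted kidneys. With 1 library per group the differences between genotypes were not tested, and genotype, weeks and recipient cannot be told apart.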

How the results depend on the processing

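The calls of the members were the same with DESeq2's size factors and with a prior count of 2. That prior moved FGA most, by up to 1.96 log2 units, since its controls had 1 and 0 counts. Scaling by totals without ribosomal RNA loci shifted the median log2 ratio of all genes by 0.18 in CD39/CD46/CD55/TBM, 0.36 in CD39/CD55 and -0.15 between the transplanted kidneys. It moved 8 of 50 member ratios outside their counting interval and reversed 0. IL6ST then passed the 2-fold rule in CD39/CD46/CD55/TBM (1.17). Genes past the threshold for transplantation numbered 225 higher and 493 lower, with 543 and 1035 without a filter, 1124 and 1681 with genotype as a block, and 431 and 865 by DESeq2's Wald test. Leaving out each library gave 186 to 1051 higher and 392 to 1349 lower, the highest of each without the transplanted CD39/CD55 library. With genotype as a block, genes that rose numbered 13 of the other positive acute phase list (12 without a filter, 10 by DESeq2), 5 of STAT3 targets, 5 of the IL1 and NF-kB arm and 6 of the fibrin list, and 5 of the haem list fell. The causes were not tested. For genotype, 0 passed in either direction, with 133 higher and 171 lower with state as a block, 12 and 5 by DESeq2, and 0 to 14 higher and 0 to 4 lower when each library was left out. A side left with 1 library is assumed there to vary like the other. Leaving out a library also unbalances the states by construction, and log2 fold changes of genotype then crossed 0: FGA -4.57 to 8.24, FGB -2.85 to 2.23, FGG -3.77 to 1.79, SAA3 -2.90 to 6.49, HP -2.06 to 4.37, SOCS3 -0.36 to 1.99 and IL6ST -0.30 to 0.91. For transplantation, so did OSMR (-0.039 to 1.60), SOCS1 (-0.45 to 0.53) and HNF4A (-1.56 to 0.23). No paired analysis by replicate number was possible because the labels give none and each group has 1 library. The fits with genotype or state as a block pair the libraries by that label and leave 1 residual degree of freedom. Depth limits what can be said of genes with few counts, among them CRP, IL6, OSM, ORM1, ALB and SAA2, and of the controls for FGA, SAA3 and HP.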

Other observations

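The IL1 and NF-kB arm, the other main route to acute phase genes, had 3 of 24 tested genes that rose in transplanted kidneys and 0 that fell (edgeR, adjusted p under 0.05). TNFRSF1B, a receptor for tumour necrosis factor, had 718 and 94 counts in the CD39/CD46/CD55/TBM graft and control and 800 and 145 in those of CD39/CD55 (log2 fold change 2.90, SE 0.43, adjusted p = 0.00438). IL1RAP, the shared chain of IL1 receptors, had 540 and 95 counts in CD39/CD46/CD55/TBM and 323 and 135 in CD39/CD55 (2.17, SE 0.47, adjusted p = 0.0238). NFKBIZ, a nuclear regulator of NF-kB target genes, had 656 and 153 counts in CD39/CD46/CD55/TBM and 262 and 69 in CD39/CD55 (2.30, SE 0.58, adjusted p = 0.0466). Without the transplanted CD39/CD46/CD55/TBM library, IL1RAP had an adjusted p of 0.0807 and NFKBIZ one of 0.232. IL1RAP was also lost when the control of that genotype was left out (0.0678) and NFKBIZ without the untransplanted CD39/CD55 library (0.132). IL1R1, named after its values were seen, had 662 and 252 counts in CD39/CD46/CD55/TBM and 149 and 161 in CD39/CD55.

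Genes that clear haemoglobin and haem, the task in which haptoglobin takes part, gave 0 of 13 tested that rose and 1 that fell. That was LRP2, an endocytic receptor of the proximal tubule, with 831 and 20999 counts in the CD39/CD46/CD55/TBM graft and control and 2622 and 23515 in those of CD39/CD55 (log2 fold change -3.53, SE 0.60, adjusted p = 0.00825). CD163, the macrophage receptor for haptoglobin bound to haemoglobin, had 41 and 85 counts in CD39/CD46/CD55/TBM and 27 and 57 in CD39/CD55. HMOX1, which breaks down haem, had 66 and 135 counts in CD39/CD46/CD55/TBM and 127 and 1102 in CD39/CD55. Both were named after their values were seen, and their highest counts were in untransplanted kidneys.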
